A study of Mus musculus with 31 samples.

Results

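The genes described are 10 enzymes of glycine cleavage and of the methionine cycle, each chosen by its symbol in the platform annotation of the arrays: Gcsh, Gldc, Amt, Shmt1, Shmt2, Gnmt, Mat1a, Bhmt, Cbs and Ahcy. Of these 10 genes 9 were measured, each by 1 probe, which makes 9 of the 21765 probes tested and 9 of the 15095 genes they name, and Amt is not analysed here. Their values are followed across the livers of 31 BXD strains of mice.

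BXD strains are recombinant inbred lines descended from C57BL/6J and DBA/2J mice, here labelled as BxD/TyJ with a strain number. Each strain was represented by whole-liver RNA of 3 male mice aged 8 weeks, mixed in equal amounts, labelled with Alexa Fluor 647 (red) and hybridised once. The reference on each glass array was a pool of whole-liver RNA from 9 male C57BL/6J mice of the same age, labelled with Alexa Fluor 555 (green) together with a spike-in RNA mix. For each dye 20 ug of RNA was reverse transcribed, and the dyes were not exchanged on any array. The strains form 1 group with 1 array each, so a p-value measures the spread between strains, in which pooled mice, array and strain are not separated. Because C57BL/6J is represented by that pool alone, tests of a mean against 0 leave out the spread of the control. With the dyes never exchanged, such a mean also cannot be told apart from a difference between the dyes at that probe.

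Glycine is broken down in liver mitochondria by the glycine cleavage system, in which the P protein Gldc removes the carboxyl group, the H protein Gcsh carries the remaining aminomethyl arm on its lipoyl group, the T protein Amt passes the carbon to tetrahydrofolate and the L protein Dld reoxidises the lipoyl group. Serine hydroxymethyltransferases, cytosolic Shmt1 and mitochondrial Shmt2, interconvert serine and glycine and load the same folate carrier. In the methionine cycle Mat1a makes S-adenosylmethionine, Gnmt spends it on glycine, Ahcy splits the S-adenosylhomocysteine that remains, and the homocysteine is either methylated again by Bhmt with betaine or passed by Cbs to the synthesis of cysteine. Gnmt, Mat1a and Bhmt are known as abundant enzymes of hepatocytes.

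The values are deposited log ratios, taken as log2 of strain over C57BL/6J. Neither the log base nor the direction is stated in the sources, and this direction is likely since the strains carried the red dye. A value of 1 then stands for a doubling over the C57BL/6J pool. A ratio gives no level, so 1 gene's probe cannot be set against another's, and the presence of liver markers could not be checked. In whole liver, fewer cells of a type and less RNA per cell cannot be told apart.

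Some features of the whole set bear on these probes. The arrays of strains 23, 28, 40 and 42 stood apart, with a median r to the other arrays of 0.06 to 0.37, against 0.57 to 0.79 for the other 27. Probes whose identifier is a multiple of 8, 2532 in all, had an array median of -0.72 to -0.50 in those 27 strains and of -0.24 to 0.01 in the 4. Among the genes described, Gcsh (probe 19072) and Mat1a (probe 17824) have such identifiers. Their means, the split at Gcsh and the called pairs of Mat1a are therefore also given after place correction, in which the median of all probes with the same remainder of the identifier divided by 8 was subtracted on each array.

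Before the values, the promoters of 3 of the 4 genes that varied most alike over the 27 strains are shown, namely Shmt1, Gnmt and Ahcy, with Mat1a as the other one. These are the 250 bases before the start of each gene, from RefSeq on GRCm38.p6, written 5′ to 3′ on the gene's strand. Capitals mark matches, on either strand, to the CCAAT box (CCAAT), the GC box (GGGCGG), the TATA box (TATAAA), an E-box (CACGTG), the glucocorticoid receptor half-site (TGTTCT) or an HNF4 site (CAAAGTCCA).
Shmt1, chr11:60811266-60811515, - strand: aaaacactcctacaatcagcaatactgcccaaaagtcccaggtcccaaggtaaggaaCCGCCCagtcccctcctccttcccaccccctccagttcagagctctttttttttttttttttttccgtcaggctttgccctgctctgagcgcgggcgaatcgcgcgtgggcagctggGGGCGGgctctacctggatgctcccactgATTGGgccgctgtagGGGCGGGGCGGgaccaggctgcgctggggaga
Gnmt, chr17:46729166-46729415, - strand: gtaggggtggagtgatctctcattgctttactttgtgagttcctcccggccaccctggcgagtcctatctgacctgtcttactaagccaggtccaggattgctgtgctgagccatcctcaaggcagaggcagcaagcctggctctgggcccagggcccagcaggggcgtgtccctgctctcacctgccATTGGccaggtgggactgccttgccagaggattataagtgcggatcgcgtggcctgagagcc
Ahcy, chr2:155074498-155074747, - strand: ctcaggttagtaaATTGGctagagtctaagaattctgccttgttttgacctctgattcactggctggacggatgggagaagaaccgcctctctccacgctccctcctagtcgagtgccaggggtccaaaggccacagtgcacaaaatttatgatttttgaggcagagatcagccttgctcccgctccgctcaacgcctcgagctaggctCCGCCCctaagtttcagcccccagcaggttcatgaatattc

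All 3 windows hold a CCAAT box on the reverse strand, which ends 42 bases before the start in Shmt1, 57 in Gnmt and 232 in Ahcy. The motif is not particular to these genes, since 7 of the 8 windows read for the genes described hold it, those of Gcsh, Gldc, Bhmt and Cbs among them, as do 33.8% of 32851 promoter windows of the same length. GC boxes, held by 32.7% of windows, were found in Shmt1 at 187, 70, 26 and 21 bases before the start, the last pair overlapping by a base, and in Ahcy at 35 bases. None of the 3 windows holds the letters searched for the TATA box (12.4% of windows), the E-box (6.02%), the glucocorticoid half-site (16.1%) or the HNF4 site (0.384%). A match is a run of letters only, and none of these arrays measured binding.

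Against the C57BL/6J pool, 6 of the 9 genes were higher in the BXD panel, 1 was lower and 2 did not pass the test (limma, adjusted p under 0.05 over all probes). Of all probes, 37.4% were higher, 37.6% lower and 75% different in either direction by the same rule, so a passing mean was the usual case on these arrays. The share in either direction was 73.9% after place correction and 78.1% without strains 23, 28, 40 and 42. The median of the panel means was 0.17 over the 9 probes and 0.001 over all probes. Shmt2 and Gnmt had the largest means above 0, and Gcsh stood furthest below.

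**Figure D1:**
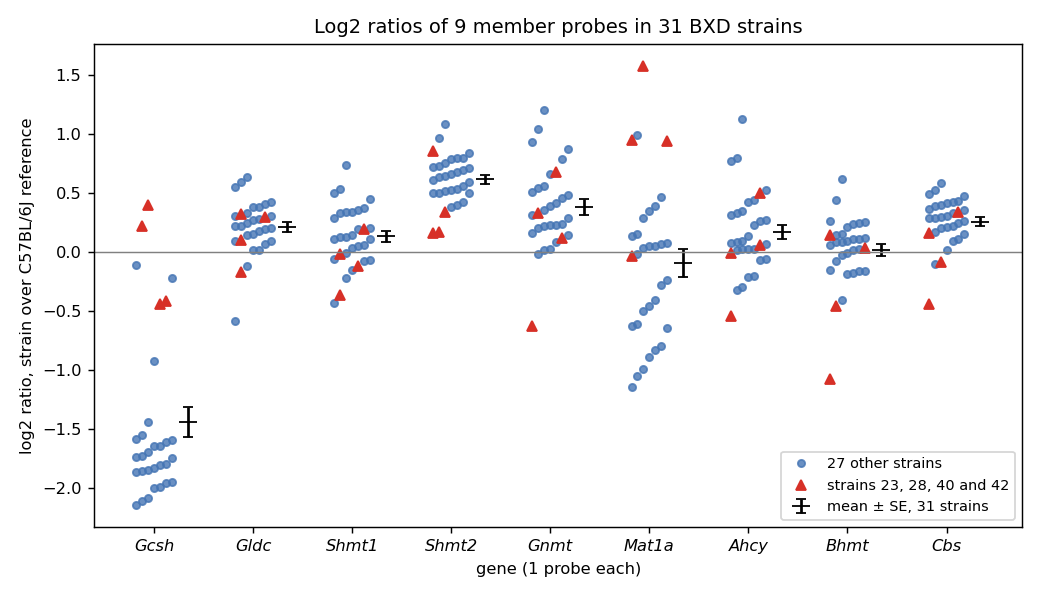
Log2 ratio of strain over C57BL/6J reference (vertical axis) for the probe of each of 9 genes (horizontal axis), 1 point per strain, with red triangles for strains 23, 28, 40 and 42 and black bars for the mean ± SE over 31 strains. Gcsh lies mostly below -1.4 with 7 strains apart, Shmt2 is above 0 in all 31 strains, and Mat1a spreads from -1.15 to 1.58.

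Within the glycine cleavage system, Gcsh and Gldc had means of opposite sign. Gldc, the decarboxylase (probe 21378), ranged from -0.59 in strain 8 over a median of 0.22 to 0.64 in strain 1. It was above 0 in 28 of 31 strains. The exceptions were strain 8, strain 23 at -0.17 and strain 18 at -0.12. The mean was 0.21 ± 0.04 (SE, n = 31), higher than the reference with an adjusted p of 3.37e-05, and 0.15 after place correction (adjusted p = 0.00181). Its SD over strains, 0.24, was ordinary, with 50.8% of all probes having a larger one. Strain 1, where Gldc was highest, was also the strain with the highest Shmt2.

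Gcsh, the lipoyl carrier, ranged from -2.14 in strain 20 over a median of -1.73 to 0.40 in strain 40. In 29 of 31 strains it was below 0, and strains 23 and 40 were the ones above. The mean was -1.44 ± 0.13 (SE, n = 31), which was 2.72-fold lower than the reference (adjusted p = 1.06e-12). Place correction left it at -0.87 ± 0.11 (SE, n = 31; adjusted p = 1.89e-09), with 4 strains above 0. Without strains 23, 28, 40 and 42 the mean was -1.65 (adjusted p = 2.89e-17). Its SD of 0.72 was exceeded by 1.52% of all probes.

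The 31 strains fell into 2 groups at Gcsh, found from its own values, so what follows on the groups is description with no test. In 24 strains Gcsh lay between -2.14 and -1.44, with a median of -1.80 and an SD of 0.19. In the other 7 it read -0.93 in strain 1, -0.44 in strain 28, -0.41 in strain 42, -0.22 in strain 14, -0.11 in strain 32, 0.22 in strain 23 and 0.40 in strain 40. The groups were 0.52 apart, and the split explained 87.3% of the variance, a share exceeded by 13 of all probes (0.0597%). Among the other 8 genes the best split explained between 53.1% (Gldc) and 65.6% (Mat1a), beside a median of 62.7% over all probes.

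Of the 7 strains in the upper group, 4 were those whose arrays stood apart from all others, and their part in the split was not tested. Strains 1, 14 and 32 had arrays like the rest, with an every 8th median of -0.70, -0.68 and -0.63. Place correction put 31 of 31 strains in the same group as before, with a share of 86.8% and a gap of 0.62, from -0.84 to -0.23. Without the 4 strains, the best split with at least 6 strains on each side explained 55.6%, and strains 1, 14 and 32 remained the highest of the 27.

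**Figure D2:**
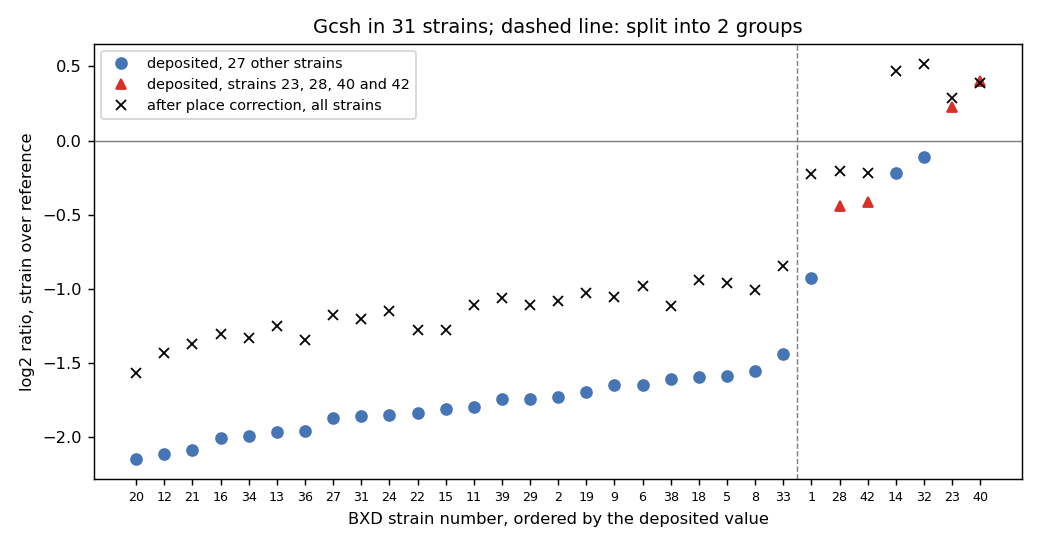
Gcsh log2 ratio of strain over reference (vertical axis) in 31 BXD strains ordered by the deposited value (horizontal axis), with circles and triangles for deposited values and crosses for values after place correction; the dashed line is the split into 2 groups. The 24 strains to the left of it lie at or below -1.44, the 7 to the right at or above -0.93, and the gap remains after correction.

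For each of the other 8 genes the ranges of the 2 groups overlapped. The share of all probes with such an overlap was not counted, so nothing is read from this. Gldc had a median of 0.21 in the 24 strains and 0.30 in the 7, and in strains 1, 14 and 32 it lay between 0.25 and 0.64. Shmt2 had medians of 0.66 and 0.50, and Cbs of 0.29 and 0.30. Gnmt had a median of 0.40 in the 24 strains and 0.15 in the 7, where its values ran from -0.63 to 0.68. Mat1a had medians of 0.01 and -0.03, but it read -1.05 to -0.41 in strains 1, 14 and 32 and up to 1.58 among the 4 strains that stood apart.

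The genes that flank Gcsh on chromosome 8 and were measured are Cmc2, Cenpn and 1700030J22Rik on one side and Pkd1l2, Bco1 and Cmip on the other. At each of these 6 the ranges of the 2 Gcsh groups overlapped, which again was not set beside the share of all probes. Among the 6, Cenpn had the most strains on the same side as at Gcsh, 24 of 31 at its own best split, and Pkd1l2 had 23. Cenpn is a centromere protein whose probe also has an every 8th identifier. Cenpn read -0.81 at the median of the 24 strains of the lower Gcsh group and 0.40 at that of the 7. In strains 1, 14 and 32, however, Cenpn was between -2.16 and -0.94, on the low side. Bco1, a carotenoid cleaving enzyme, had medians of -0.18 and -0.45, in the opposite order. At its own best split 7 of 31 strains were on the same side as at Gcsh and the rest on the opposite side.

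The named genes whose best split was most like that of Gcsh were Snora15, a small nucleolar RNA, with 30 of 31 strains on the same side, Btbd9 with 29 and Dhrs13 with 28. Its own best split explained 56.1% of the variance of Snora15, 64.7% of that of Btbd9 and 83.5% of that of Dhrs13. The median over all probes was 62.7%, so only Dhrs13 lay well above it. At least 28 strains were on the same side for 124 probes in all, and 86 of these had every 8th identifiers, Snora15 and Dhrs13 among them. Such identifiers belong to 2532 of the 21765 probes.

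Since the strains are clustered at Gcsh, its relation to the other genes was examined only within each group, 16 relations in all. No probe was associated with Gcsh after adjustment over all probes in either group (limma), with 1855 probes at an unadjusted p under 0.05 among 24 strains and 1750 among 7. In the 24 strains Gcsh had a Pearson r of 0.46 with Mat1a (rho 0.40, permutation p = 0.0249 and 0.0571, adjusted p = 0.511), and 0.49 without the 2 strains farthest from the Gcsh median. With Gnmt r was 0.44 (rho 0.39, permutation p = 0.0329 and 0.0634, adjusted p = 0.533) and with Shmt1 0.42 (rho 0.38, permutation p = 0.0438 and 0.0699, adjusted p = 0.555). With Gldc, its partner in the same complex, r was -0.10 (rho 0.06, permutation p = 0.655 and 0.773). In the 7 strains r with Shmt2 was -0.76 (rho -0.75, exact permutation p = 0.0472 and 0.0663, adjusted p = 0.594), and -0.27 without the 2 farthest strains.

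Both serine hydroxymethyltransferases were higher in the panel than in the reference. Shmt2, the mitochondrial enzyme (probe 19569), ranged from 0.16 in strain 40 over a median of 0.64 to 1.09 in strain 1 and was above 0 in all 31 strains. The mean was 0.62 ± 0.04 (SE, n = 31), which was 1.53-fold higher (adjusted p = 3.45e-16). The lowest 3 strains, 40, 42 and 23, are all among those that stood apart, and without the 4 strains the lowest value was 0.38, in strain 13. After place correction the mean was 0.52, again with 31 of 31 strains above 0.

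Shmt1, the cytosolic enzyme (probe 10148), ranged from -0.43 in strain 31 over a median of 0.13 to 0.74 in strain 33. Strains lay on both sides of the reference, with 21 of 31 above 0. The mean of 0.13 ± 0.05 (SE, n = 31) passed with an adjusted p of 0.0103, and with 0.0303 after place correction. The SD was 0.26 for Shmt1 and 0.21 for Shmt2, and 40.7% and 66.2% of all probes had a larger one.

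Of the enzymes that make and use S-adenosylmethionine, Gnmt and Ahcy were higher than the reference and Mat1a did not pass. Gnmt, which methylates glycine (probe 1470), ranged from -0.63 in strain 28 over a median of 0.33 to 1.21 in strain 5. It was above 0 in 29 of 31 strains, and strain 28, 1 of the 4 that stood apart, lay well below the next lowest, strain 8 at -0.02. The mean was 0.38 ± 0.07 (SE, n = 31), which was 1.31-fold higher (adjusted p = 1.41e-06), and 0.40 after place correction. The highest strains after strain 5 were strain 9 at 1.05, strain 22 at 0.93 and strain 33 at 0.88.

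Mat1a, the liver form of methionine adenosyltransferase, was the most variable of the 9 genes after Gcsh. It ranged from -1.15 in strain 12 over a median of -0.01 to 1.58 in strain 40, with 15 strains above 0 and 16 below. The SD of 0.66 was exceeded by 2.53% of all probes. The mean was -0.10 ± 0.12 (SE, n = 31; adjusted p = 0.444). With place correction it was 0.48, above 0 in 25 of 31 strains (adjusted p = 1.72e-05), and without strains 23, 28, 40 and 42 it was -0.24 (adjusted p = 0.0259). The sign of the Mat1a mean thus changed with the treatment of the every 8th probes, and no direction against C57BL/6J is given for it. Its spread was less affected, with an SD of 0.54 after place correction and 0.54 in the 27 strains. Strain 22 at 1.00 and strain 33 at 0.46 were the highest of the 27, and strains 12, 14 at -1.05 and 21 at -0.99 the lowest.

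Ahcy, the S-adenosylhomocysteine hydrolase (probe 12491), ranged from -0.54 in strain 40 over a median of 0.09 to 1.13 in strain 22. It was above 0 in 23 of 31 strains, with strains 20 and 5 next at 0.80 and 0.77. The mean of 0.17 ± 0.06 (SE, n = 31) passed with an adjusted p of 0.0117 and did not after place correction, at 0.11 (adjusted p = 0.115). In strain 40, where Ahcy was lowest, Mat1a was highest.

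Of the 2 enzymes that use homocysteine, Cbs was higher than the reference and Bhmt did not pass. Cbs, the first enzyme of transsulfuration (probe 13988), ranged from -0.44 in strain 23 over a median of 0.29 to 0.59 in strain 16, with 28 of 31 strains above 0. The mean was 0.26 ± 0.04 (SE, n = 31; adjusted p = 2.62e-07), and 0.24 after place correction. Bhmt, the betaine methyltransferase (probe 19260), ranged from -1.08 in strain 23 over a median of 0.08 to 0.62 in strain 6, with 20 of 31 above 0. Its mean was 0.02 ± 0.05 (SE, n = 31; adjusted p = 0.742). Strain 23 had the lowest value of both genes and strain 40 the second lowest of Bhmt, at -0.46, and the third lowest of Cbs, at -0.08. The mean over the 9 of 10 hepatocyte markers that were measured was also lowest in strain 23, at -0.51, and read -0.36 in strain 40. It ranged from -0.42 to 0.35 in the 24 strains of the lower Gcsh group, so a value below that of strain 40 also occurred there. Other marker lists stood out in the same arrays. The mean over 8 of 10 Kupffer cell markers was -0.43 in strain 40, its lowest, and -0.30 in strain 23, and that over 5 of 7 adipocyte markers was highest in strain 40, at 0.11. The part of these lists in the low values was not tested.

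For the 8 genes other than Gcsh all 28 pairs were compared across strains. A pair is called where the adjusted p over all other probes is under 0.05 with each gene in turn as the covariate (limma). The larger p is printed, and permutation p-values are two-sided from 100000 resamples. Shares of all probes associated with a gene use that gene alone as the covariate, which is a looser rule. Over 31 strains 4 pairs were called, and without strains 23, 28, 40 and 42 another 2 pairs were called, with 0 in common. By the permutation p of r alone, unadjusted, 9 pairs were under 0.05 over 31 strains and 8 over 27. Which pairs were called thus depended on the 4 arrays that stood apart, and both sets of values are given.

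**Figure D3:**
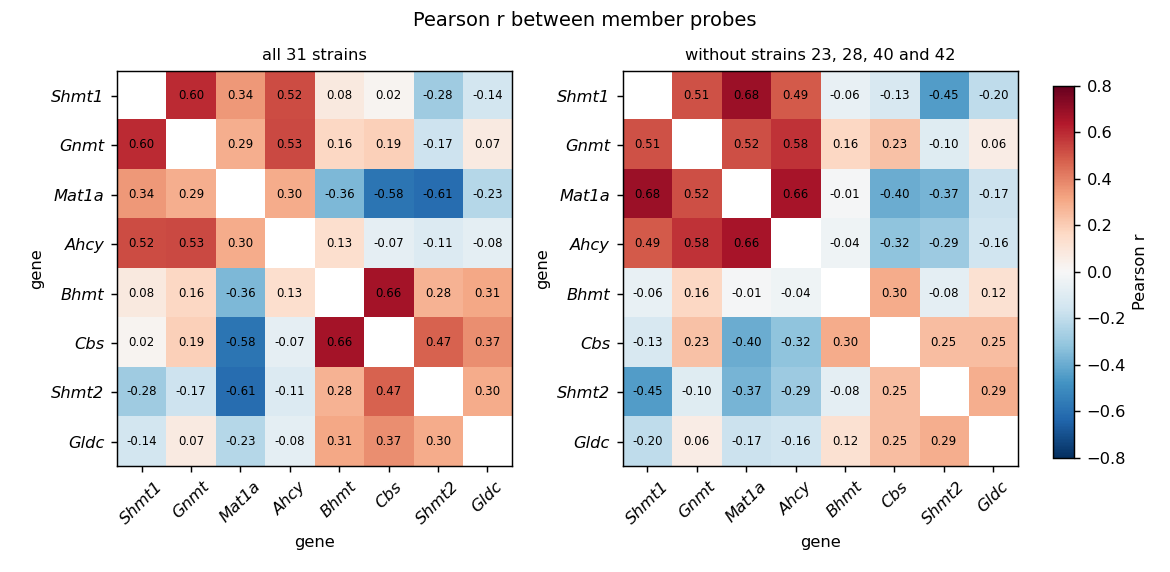
Pearson r between the log2 ratios of 8 genes (both axes) over all 31 strains (left) and over the 27 strains other than 23, 28, 40 and 42 (right), with the colour scale from -0.8 to 0.8. On the right the 6 pairs among Shmt1, Gnmt, Mat1a and Ahcy lie between 0.49 and 0.68, and the pairs of Mat1a with Shmt2 and Cbs are nearer to 0 than on the left.

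Over all 31 strains Mat1a ran opposite to Shmt2 and Cbs. For Shmt2 and Mat1a r was -0.61 (rho -0.53, permutation p = 0.00032 and 0.00281, adjusted p = 0.0042), and -0.43 without strains 40 and 42, farthest from the Shmt2 median. For Mat1a and Cbs r was -0.58 (rho -0.55, permutation p = 0.00061 and 0.0016, adjusted p = 0.00477), and -0.55 without the 2 farthest strains. With place correction these were -0.51 (adjusted p = 0.0283) and -0.48 (adjusted p = 0.0371), and over 27 strains -0.37 (adjusted p = 0.496) and -0.40 (adjusted p = 0.255). By the looser rule 35.9% of all probes were associated with Mat1a over 31 strains, 20.6% with Shmt2 and 21.5% with Cbs, so calls in 1 direction were common. Over 27 strains 0% of probes were associated with Shmt2, Cbs or Bhmt (limma), with 2127, 3395 and 1112 at an unadjusted p under 0.05.

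The other 2 pairs called over 31 strains were positive. For Bhmt and Cbs r was 0.66 (rho 0.48, permutation p = 0.00032 and 0.00726, adjusted p = 0.00906). It was 0.42 without strain 23 (adjusted p = 0.465) and 0.30 without strains 23 and 40, so this relation rested on those strains. On normal scores it was 0.59 and not called (adjusted p = 0.0671). Over 31 strains 7.27% of all probes were associated with Bhmt. For Shmt2 and Cbs r was 0.47 (rho 0.43, permutation p = 0.00766 and 0.0154, adjusted p = 0.0443), and 0.40 without strains 40 and 42. With place correction it was 0.42 and no longer called (adjusted p = 0.0966). Leaving out 1 strain ended that call for 11 of the 31 strains, namely 6, 8, 15, 16, 18, 19, 21, 22, 23, 40 and 42, with r then between 0.40 and 0.48. Over 27 strains the values were 0.30 (adjusted p = 0.98) and 0.25 (adjusted p = 0.693).

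Over the 27 strains whose arrays were alike, the genes that varied together were Shmt1, Gnmt, Mat1a and Ahcy. For Shmt1 and Mat1a r was 0.68 (rho 0.75, permutation p = 7e-05 and 4e-05, adjusted p = 0.00943), and 0.71 without the 2 farthest strains. For Mat1a and Ahcy r was 0.66 (rho 0.63, permutation p = 0.00021 and 0.00064, adjusted p = 0.00561), and 0.54 without the 2 farthest. With place correction over the same strains they were 0.69 (adjusted p = 0.00815) and 0.65 (adjusted p = 0.00752). By the looser rule 3.23% of all probes were associated with Shmt1 over 27 strains, 13% with Mat1a and 6.35% with Ahcy. Over all 31 strains r was 0.34 (adjusted p = 0.303) and 0.30 (adjusted p = 0.425), with strains 40 and 23 high in Mat1a and not in Shmt1 or Ahcy. Over 31 strains 1.59% of all probes were associated with Shmt1 and 2.19% with Ahcy. Without strain 40 alone r of Mat1a and Ahcy was 0.58 (adjusted p = 0.0215).

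The other 4 pairs among these genes were positive in both sets of strains and not called in either. For Shmt1 and Gnmt r was 0.60 over 31 strains (rho 0.50, permutation p = 0.0004 and 0.00562, adjusted p = 0.0573) and 0.51 over 27 (adjusted p = 0.225). Over 31 strains that pair passed without strain 11, 31, 36, 39 or 40, with an r of 0.60 to 0.64. For Gnmt and Ahcy it was 0.53 (rho 0.52, permutation p = 0.00248 and 0.00266, adjusted p = 0.0975) and 0.58 (adjusted p = 0.121). For Shmt1 and Ahcy it was 0.52 (rho 0.59, permutation p = 0.00245 and 0.00055, adjusted p = 0.0793) and 0.49 (adjusted p = 0.086). For Gnmt and Mat1a it was 0.29 (rho 0.38, permutation p = 0.114 and 0.0358, adjusted p = 0.462) and 0.52 (adjusted p = 0.192). Gnmt was associated with 0.551% of all probes over 31 strains and with 0.119% over 27.

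**Figure D4:**
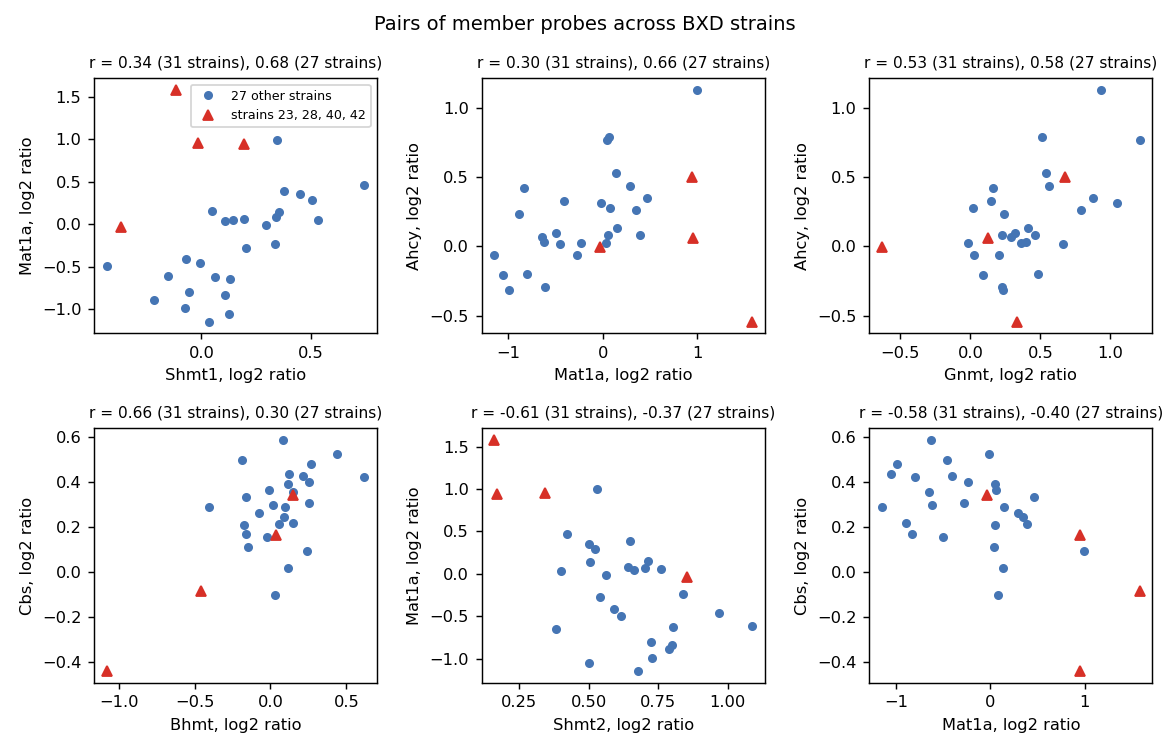
Log2 ratios of strain over reference for 6 pairs of genes, 1 point per strain, with red triangles for strains 23, 28, 40 and 42 and the Pearson r over 31 and 27 strains above each panel. For Mat1a with Shmt1 and with Ahcy the triangles lie off the run of the 27 circles, and for Bhmt with Cbs strain 23 is the point at the lower left.

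In 8 strains, 5, 15, 20, 22, 27, 33, 38 and 42, all 4 of these genes were above their own medians. In 4 strains, 1, 12, 21 and 28, all 4 were below. Strain 22 had the highest Ahcy, the third highest Gnmt and the second highest Mat1a of all strains, and strain 33 the highest Shmt1. The mean over the 7 of 10 periportal hepatocyte markers that were measured was highest in strain 5, at 0.49, where Gnmt was highest. Over 27 strains that mean had an r of 0.61 with Gnmt, 0.44 with Ahcy and 0.30 with Mat1a, given as description. The mean of 10 pericentral markers had 0.54, 0.34 and 0.21. The part of either in the joint variation was not tested.

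The same 4 genes also moved with an array-wide measure, as did Shmt2 and Cbs in the other direction. Over 27 strains the median of the every 8th probes on an array had an r of 0.67 with Mat1a (rho 0.64, permutation p = 0.00014 and 0.00046), 0.57 with Ahcy (rho 0.59, permutation p = 0.00203 and 0.00177), 0.45 with Shmt1 (rho 0.46, permutation p = 0.0199 and 0.0157) and 0.43 with Gnmt (rho 0.38, permutation p = 0.0248 and 0.0508). Of these only Mat1a has an every 8th probe. For the other 5 genes r was -0.43 with Shmt2 (rho -0.38, permutation p = 0.026 and 0.0491), -0.40 with Cbs (rho -0.35, permutation p = 0.0382 and 0.0732), -0.37 with Gldc (rho -0.30, permutation p = 0.0533 and 0.121), -0.02 with Bhmt (permutation p = 0.919) and 0.01 with Gcsh (permutation p = 0.968). This makes 9 relations with unadjusted p-values. Without strains 38 and 15, farthest from the median, r was 0.67 for Mat1a, 0.62 for Ahcy, 0.37 for Shmt1 and 0.38 for Gnmt. It was then -0.35 for Shmt2, -0.32 for Cbs and -0.43 for Gldc.

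With that median as a covariate, chosen after seeing the data, 0 of the 28 pairs were called over 27 strains (limma), with 5 at an unadjusted p under 0.05. The r of Shmt1 and Mat1a was then 0.58 (adjusted p = 0.161) and that of Mat1a and Ahcy 0.46 (adjusted p = 0.313). Over 31 strains with the same covariate 3 pairs were called, Shmt1 and Mat1a at 0.69 (adjusted p = 0.00844), Shmt1 and Gnmt at 0.59 (adjusted p = 0.0376) and Gnmt and Mat1a at 0.56 (adjusted p = 0.0403). None of the 4 pairs called over 31 strains without the covariate was called with it (limma). Shmt2 and Mat1a then had an r of -0.35 (adjusted p = 0.341) and Mat1a and Cbs of -0.25 (adjusted p = 0.615). Bhmt and Cbs had 0.51 (adjusted p = 0.338) and Shmt2 and Cbs 0.19 (adjusted p = 0.758). With the first 3 principal components of all probes removed, 0 pairs were called and 4 were under 0.05 unadjusted (limma), and Shmt1 and Ahcy had an r of -0.04. Shmt2 and Mat1a then had -0.06, Mat1a and Cbs -0.004, Shmt2 and Cbs -0.05 and Bhmt and Cbs 0.51.

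Gldc was in none of the pairs called. No probe was associated with it after adjustment (limma), with 2406 at an unadjusted p under 0.05 over 31 strains and 2660 over 27. Its highest r among these genes was 0.37, with Cbs, over 31 strains, and 0.29, with Shmt2, over 27.

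The named genes most like each of the 4 genes with the largest SD other than Gcsh are given by Pearson r over 31 strains, as description. For Mat1a they were Scgb1b27 (0.88), Plb1 (0.87) and Ninj1 (0.87), which had 0.84, 0.79 and 0.77 over 27 strains. Ninj1, like Mat1a, has an every 8th probe. For Gnmt they were Atg16l1 (0.76), an autophagy gene, Naa50 (0.74) and Mad2l2 (0.73), with 0.64, 0.73 and 0.69 over 27. For Ahcy they were Igkv4-53 (0.82), an immunoglobulin segment, Fbln7 (0.80) and Hp (0.79), which encodes the acute phase protein haptoglobin, with 0.81, 0.78 and 0.81 over 27. For Bhmt they were Plod3 (0.79), Msto1 (0.77) and Pip5k1c (0.76), which had 0.59, 0.32 and 0.47 over 27 strains. All pairs of probes share the arrays and the reference.

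Around these enzymes, 58 other genes of one-carbon, glycine and sulfur amino acid metabolism were listed and 45 were measured, by 46 probes. In the panel 19 of the 45 were higher than the reference, 14 lower and 12 did not pass, against 37.4% and 37.6% of all probes. The median of their panel means was 0.05.

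**Figure D5:**
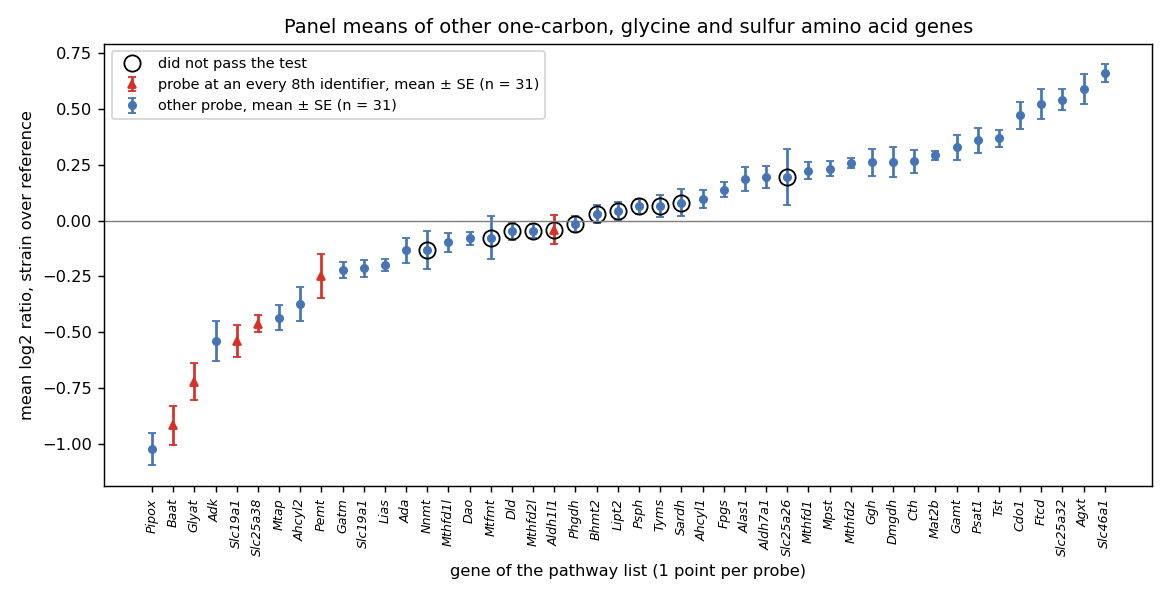
Mean log2 ratio of strain over reference ± SE over 31 strains (vertical axis) for 46 probes of 45 other pathway genes (horizontal axis), with red triangles for every 8th identifiers and open circles around probes that did not pass the test. Means run from -1.02 for Pipox to 0.66 for Slc46a1, and 5 of the 9 lowest probes have every 8th identifiers.

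The largest means above 0 belonged to Slc46a1, the proton-coupled folate transporter, at 0.66 ± 0.04 (SE, n = 31), and Agxt, the peroxisomal alanine-glyoxylate aminotransferase, at 0.59 ± 0.07. Slc25a32, the mitochondrial folate carrier, followed at 0.54 ± 0.05, and Ftcd, which feeds histidine carbon into folate, at 0.52 ± 0.07. The first 3 were above 0 in 31 of 31 strains. The largest mean below 0 was that of Pipox, the peroxisomal sarcosine and pipecolate oxidase, at -1.02 ± 0.07 and below 0 in 29 of 31 strains. Sarcosine is the product of Gnmt. Adk, adenosine kinase, which removes a product of Ahcy, read -0.54 ± 0.09.

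Another 2 of the lowest 4 have every 8th probes. Baat, the bile acid conjugating enzyme, read -0.92 ± 0.09 (SE, n = 31) and -0.34 after place correction. Glyat, glycine N-acyltransferase, read -0.72 ± 0.08 and -0.15 after place correction, where it no longer passed (adjusted p = 0.155). Slc25a38, the mitochondrial glycine carrier, read -0.46, below 0 in 31 of 31 strains, and 0.11 after place correction (adjusted p = 0.0572). The largest SDs were those of Slc25a26, the mitochondrial S-adenosylmethionine carrier (0.70), Pemt, which makes phosphatidylcholine with S-adenosylmethionine (0.55), and Mtfmt (0.54). The Pemt mean was -0.25 and turned to 0.32 after place correction. Dld, the L protein of glycine cleavage, did not pass, at -0.05 ± 0.04 (SE, n = 31; adjusted p = 0.257).

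The 46 pathway probes were tested with 1 of the genes described alone as the covariate, which is looser than the rule used for pairs. Over 27 strains Mat1a was positively associated with Mtap, Mtfmt, Pemt and Tst and negatively with Cth and probe 328 of Slc19a1. Shmt1 was positively associated with Cdo1 and Tst and negatively with Cth, and Ahcy positively with Mtfmt and Tst and negatively with the same Slc19a1 probe. These are 6 of 46 for Mat1a, 3 for Shmt1 and 3 for Ahcy, beside 13%, 3.23% and 6.35% of all probes, so the pathway probes were called about as often as probes in general for Mat1a and Ahcy, and nothing is read from the 3 calls for Shmt1. Cth follows Cbs in transsulfuration, and Tst, the sulfurtransferase rhodanese, acts further along sulfur metabolism. Over 31 strains Cdo1 and Tst were called with Shmt1 and Slc19a1 probe 328 with Ahcy. Mat1a then had 10 positive and 7 negative partners among the 46, with the other Slc19a1 probe, 18302, on the positive side, beside 35.9% of all probes. Shmt2 had 4 positive and 9 negative, Cbs 6 and 4, and Bhmt 2 and 1, beside 20.6%, 21.5% and 7.27%. No pathway probe was associated with Gnmt or Gldc over 31 or 27 strains (limma), with 8 of 46 at an unadjusted p under 0.05 in each case. Of all 21764 other probes, 3010 and 2561 were under it for Gnmt, and 2406 and 2660 for Gldc. Over 27 strains no pathway probe was associated with Shmt2, Bhmt or Cbs either. There 4, 4 and 11 of 46 were under 0.05 unadjusted, beside 2127, 1112 and 3395 of 21764. Nothing is read from these unadjusted counts.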

How the data were processed

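The authors deposited normalized log ratios, 1 column per array, taken here as log2 of strain over C57BL/6J. Per the submitters' processing notes, limma and R 2.0.0 were used. For background correction, normalization, log base and direction, the method is not given in the sources used here. The sorted values of the arrays differed by at most 0.000256, with a median of -0.0015 and an SD of 0.51, so each array had been brought to 1 distribution before deposit. Without intensities, signal over background is unknown, and the precision is limited by the number of arrays. Tests cover the 21765 of 23040 features with a value on all 31 arrays, and 1275 were empty. A single gene was annotated for 16642 of them, and 15964 of these were found in a RefSeq table of GRCm38.p6.

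A probe's mean was compared with 0 by limma 3.58.1 under R 4.3.3, using lmFit and eBayes, two-sided, and called at an adjusted p under 0.05 (Benjamini-Hochberg over all probes). Pairs of genes were tested with each gene's value in turn as the covariate for all other probes, and both had to pass. Permutation tests used 100000 resamples (Python 3.11.15, numpy 2.4.6, scipy 1.17.1, pandas 2.3.3, matplotlib 3.10.9), and the exact form was used for 7 strains. Both limma fits were tested on simulated data. Gcsh was split at the point of its sorted values that explained most variance, with at least 6 strains on each side.

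The genes described, the pathway list, the marker lists and the doubted arrays were chosen with earlier results of these data known. Named genes are each gene of the rule, up to 4 pathway genes in each direction by mean and up to 3 by SD, the 3 genes most like Gcsh, Mat1a, Gnmt, Ahcy and Bhmt, and up to 3 measured genes on each side of Gcsh. Slc25a38, Dld, and the pathway genes associated with Mat1a, Shmt1 or Ahcy, were named outside that rule, after their values were seen. Alternatives were place correction, leaving out strains 23, 28, 40 and 42 or 1 strain at a time, centring, normal scores, ranks, 3 principal components removed, a threshold of 0.2 on the mean, robust eBayes, a filter on SD and the every 8th median as a covariate.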

Additional observations from a re-analysis of the deposited data

How the results depend on the processing

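The precision is set by 1 array per strain, without signal over background. The count of genes whose mean differed, 7 of 9, was 3 when a mean beyond 0.2 was required and 4 of 6 with probes of low SD left out, and for the pathway list 33 of 45 became 17 and 20 of 26; fewer probes were tested under the filter. The Mat1a mean turned to 0.48 with place correction and 0.40 with place correction and without strains 23, 28, 40 and 42, and the Bhmt mean to -0.0029 with place correction. Of the pairs, 4 of 28 were called, against 2 without those 4 strains, 2 with place correction as well, 2 without the 2 farthest strains, 0 on ranks (11 unadjusted, limma), 0 with 3 principal components removed (4 unadjusted), 0 over 27 strains with the every 8th median as a covariate (5 unadjusted), and 2 to 5 without 1 strain at a time, the lowest without strain 23. With the components removed r was -0.048 for Shmt2 and Cbs and -0.040 for Shmt1 and Ahcy. The median SD of the 9 probes, 0.30, was 0.26 without the 4 strains, with or without place correction, and 0.35 on normal scores. The cause of these changes was not tested. Centring changed none of the calls on means and pairs, and robust eBayes, run on means only, none of those. No paired analysis was possible because the strains form 1 group and their numbers pair no samples.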
